A study of Panax ginseng with 12 samples.

Results

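The genes of the mevalonate pathway, from the condensation that makes HMG-CoA to the oxidation of squalene, were followed in embryogenic calli of Panax ginseng kept cold. Members were the assembled genes whose Swiss-Prot hit or annotation names an enzyme of the path, searched as fixed words without regard to case. This found 38 of the 44953 assembled genes in the deposited table, and all 38 passed the filter on low values. Of these, 35 stand for the 9 enzymes of the path, and 3 are HMG-CoA lyase, which shares the substrate's name but works in leucine breakdown, so they are described last. Cold calli were held at 5 °C and control calli at 20 °C, and RNA was taken after 2, 4 or 6 days. Each combination of temperature and day has 2 libraries, 12 in all. The labels give no other treatment, and the plant line, genotype and age of the calli were not given in the sources used here. Nothing in the labels says that the libraries of a group came from separate cultures, so the p-values rest on the spread between libraries, which may be technical.

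Plants make isopentenyl diphosphate, the building block of isoprenoids, by the mevalonate pathway outside the plastid and by the MEP pathway inside it. In the mevalonate pathway HMG-CoA synthase (HMGS) makes HMG-CoA, HMG-CoA reductase (HMGR) reduces it to mevalonate, a pair of kinases (MVK and PMK) and a decarboxylase (MVD) turn mevalonate into isopentenyl diphosphate, and an isomerase (IDI) makes its allylic partner. Farnesyl diphosphate synthase (FPS), squalene synthase (SQS) and squalene monooxygenase (SQE) then lead to oxidosqualene, from which plants make membrane sterols and ginseng makes its ginsenosides. HMGR is widely regarded as the main point of control of the path.

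The values are TPM, which are scaled for gene length and for the library's total, so they are relative amounts. Each member is named here by its enzyme and its assembled length in bases, so that HMGR-1131 is an HMG-CoA reductase gene assembled to 1131 bases. The assembly held 2 HMGS, 10 HMGR, 1 MVK, 8 PMK, 3 MVD, 3 IDI, 1 FPS, 3 SQS and 4 SQE genes. Their lengths ran from 214 to 2563 bases with a median of 854.5, and 20 of the 38 were shorter than 1000 bases. The 38 members came from 29 components of the assembly, and 7 components held 16 of them, so several are likely to be pieces or near copies of 1 gene among which reads can be divided, and the value of any such member is uncertain to that extent. A sum over members is therefore also given for each enzyme. HMGR-1417 (TRINITY_DN35207_c0_g1) has an HMGR hit but carries an annotation as a pumilio homolog, and PMK-557 (TRINITY_DN25064_c1_g1) has an annotation and no Swiss-Prot hit.

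The 12 libraries had deposited sums of 873298 to 929555 TPM and medians of 6.50 to 8.59 TPM. Of the marker lists, the 12 embryogenic callus genes, SERK1, SERK2, BBM2 and WOX genes among them, summed to 448 to 985 TPM in control and 444 to 680 TPM in cold, while no gene named Leafy cotyledon, Fusca or AGL15 was found. Lists for xylem (16 genes, 170 to 495 TPM in control and 181 to 363 in cold), epidermis (13 genes, 241 to 536 and 233 to 350), green tissue (36 genes, 230 to 294 and 189 to 252) and seed (2 genes, 46.5 to 215 and 47.8 to 101) had sums that overlapped between the temperatures. Single genes of the lists were called: 2 higher and 1 lower in the callus list, 1 and 3 for xylem, 3 and 1 for epidermis, 7 and 2 for green tissue and none for seed. The part of these lists in the results was not tested. In bulk calli, fewer cells of a type and less RNA per cell cannot be told apart.

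**Figure D1:**
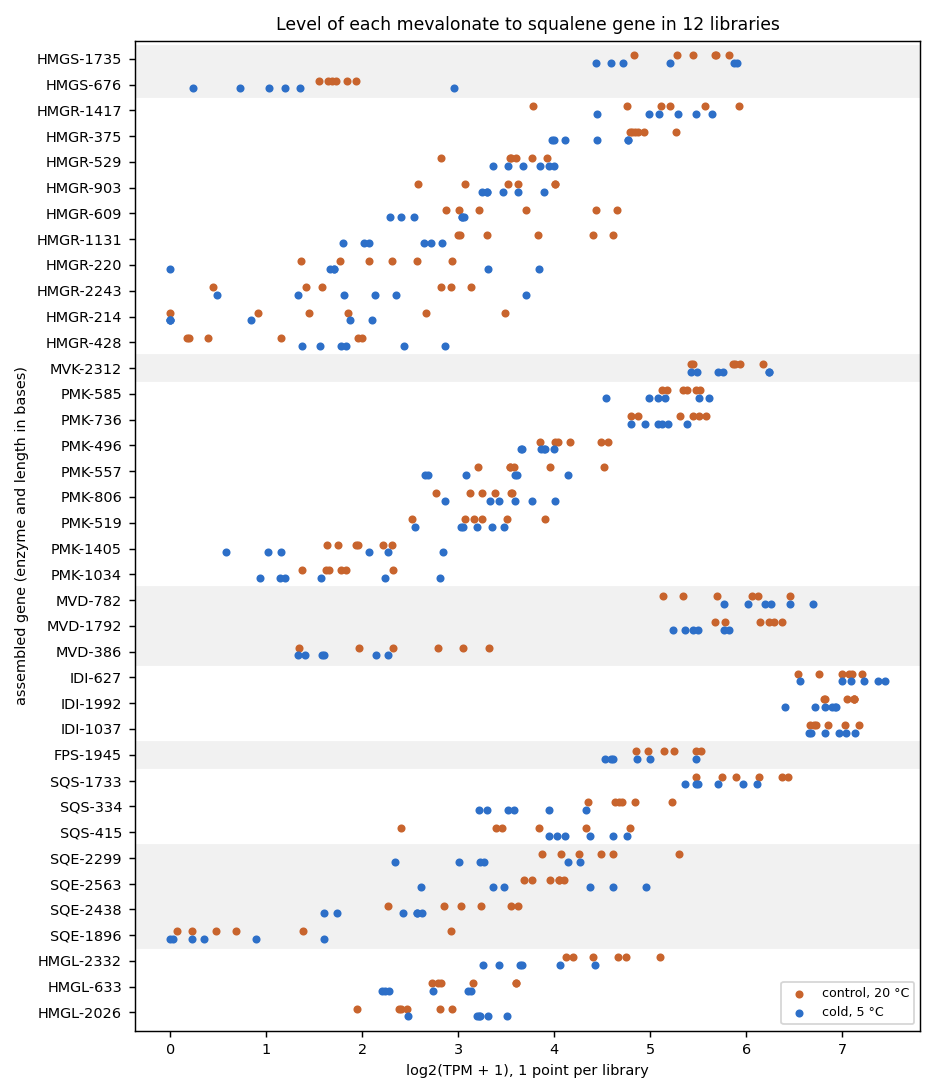
TPM of each assembled gene of the path and of HMG-CoA lyase in the 12 libraries, on a log2(TPM + 1) axis, with control and cold libraries as points of different colour. The IDI genes lie highest, and the genes of HMGS, HMGR, PMK, MVD and SQE each include low members toward the left.

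Transcript amounts differed more between enzymes than between temperatures. Summed over its genes, IDI had 368 ± 44.7 TPM (mean ± SD, n = 12 libraries), far above the next enzymes. MVD followed with 127 ± 22.6, PMK with 123 ± 20.1, HMGR with 114 ± 18.5 and SQS with 94.0 ± 23.6 TPM, and neighbours in that order lay within their spread. Below them came MVK with 55.9 ± 12.4, HMGS with 42.6 ± 15, SQE with 38.5 ± 11.4 and FPS with 32.5 ± 8.27 TPM, where neighbours again lay within their spread. The sums have no test, and an enzyme assembled in pieces is counted once for each piece. A single gene, HMGS-1735, held 95% of the HMGS sum, whereas the most abundant gene held 31.5% of the HMGR sum, 30.5% of PMK, 35.8% of IDI, 42.0% of SQE, 52.5% of MVD and 62.1% of SQS.

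Averaged over the 3 days, 6 of the 35 genes of the path fell in the cold, none rose, and 29 were not called, where called means an adjusted p below 0.05. The genes that fell were HMGR-1131, HMGR-375, MVD-1792, SQS-334, SQE-2299 and SQE-2438, and no HMGS, MVK, PMK, IDI or FPS gene was called. The enzymes differ in their number of assembled genes, and steps were not tested against each other. With HMGL-2332, 7 of 38 members (18.4%) were called lower by limma on log2(TPM + 1), with Benjamini-Hochberg adjustment over 44600 genes. Across all genes tested 23.3% were called, 11.3% higher and 12% lower. In this fit the members' share was above the background for lower calls and below that for calls in either direction. At an unadjusted p below 0.05, 11 of the 38 members were lower and 2 were higher in limma, beside 20.4% and 18.1% of all genes. The median log2 difference (cold minus control) was −0.27 over the members and −0.22 over the genes of the path, against −0.05 over all genes, and 27 of 38 members were below zero. The members' share of lower calls was not above the background in every fit. Without a variance trend 4 of 38 members were called lower, beside 4770 of 44600 genes. With a replicate block of the number in the titles, 3 of 38 were, beside 4391 of 44600.

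Only HMGR-1131 and SQS-334 were called in each of the 12 fits that left out 1 library. Over all genes, too, each of those fits called fewer genes lower than the fit with all 12 libraries. A smaller number of members called is therefore not particular to the members. In those fits the number of members called lower was 2 without control day 4 replicate 2. It was 3 without control day 4 replicate 1, control day 6 replicate 2 or cold day 4 replicate 1, and also 3 without cold day 4 replicate 2 or cold day 6 replicate 2. It was 4 without either cold day 2 library, and 5 or 6 without any 1 of the others. The 6 without control day 2 replicate 1 hold 4 of the 7 members called with all libraries, and the 6 without control day 6 replicate 3 hold 5. Earlier results of these data had set apart replicate 3 of cold day 2 and replicate 3 of cold day 6, and 6 members were called with both left out.

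**Figure D2:**
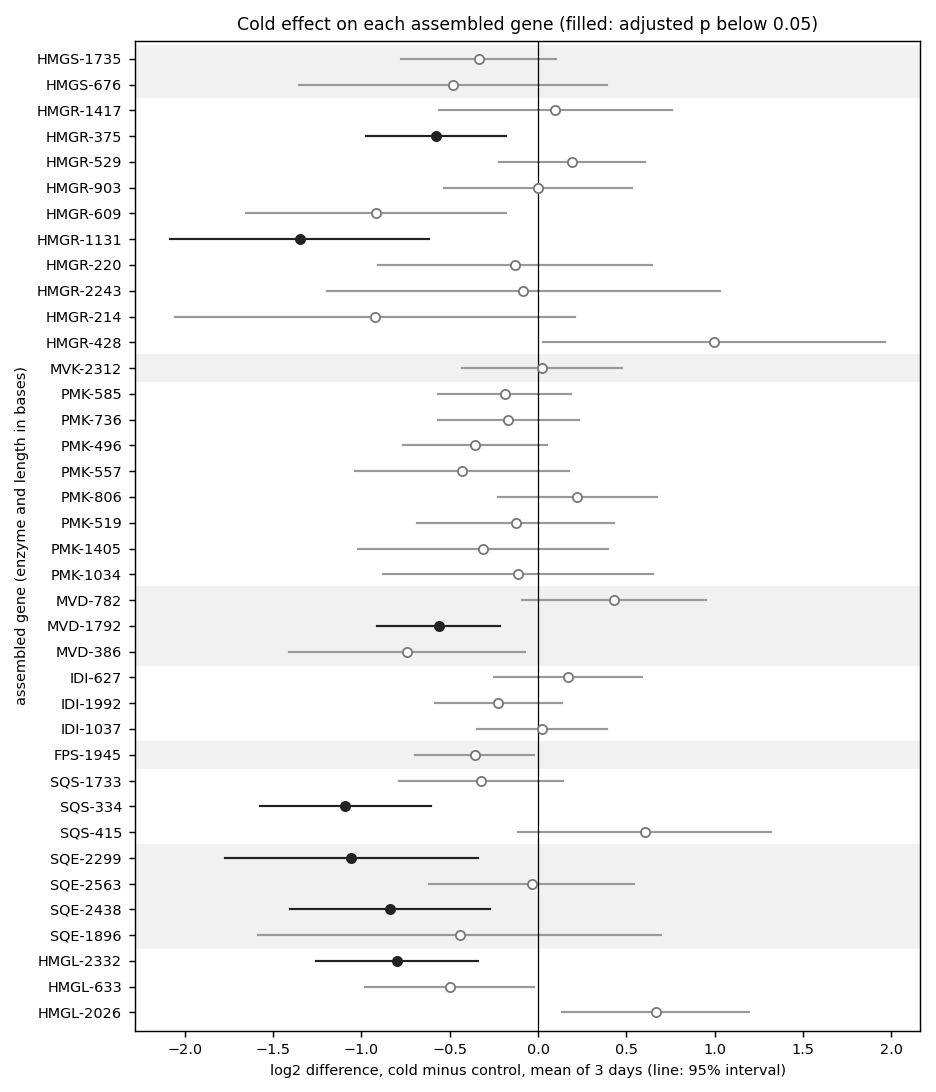
Log2 difference on the log2(TPM + 1) scale, cold minus control, averaged over the 3 days, for each of the 38 members with its 95% interval from limma. Filled points are the 7 members with an adjusted p below 0.05, all of which lie below zero.

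HMGS, which joins acetoacetyl-CoA and acetyl-CoA, was carried almost wholly by HMGS-1735 (TRINITY_DN25895_c0_g1). On day 2 it had 50.1 and 37.8 TPM in control and 57.7 and 58.9 TPM in cold. On day 4 it had 55.65 and 42.7 TPM in control against 23.1 and 36.0 in cold, and on day 6 27.5 and 50.6 against 20.6 and 25.3. Both cold libraries were thus above both control libraries on day 2 and below them on days 4 and 6. The mean over 3 days was not called (log2 difference −0.34, 95% interval −0.77 to 0.10, limma Benjamini-Hochberg adjusted p = 0.23), nor was the test of whether the difference depended on the day (adjusted p = 0.55 by the same fit). The short HMGS-676 (TRINITY_DN14902_c0_g1) was at 1.93 to 2.81 TPM in control and 0.18 to 6.73 TPM in cold.

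Among the 10 HMGR genes, 2 fell and 8 were not called, while the sum over all 10 was 126 ± 12.1 TPM in control and 102 ± 16.0 in cold (n = 6 each), a ratio of 0.807 with overlapping libraries. On day 2 alone the sum was 148 and 125 TPM in control and 79.7 and 84.5 in cold, a ratio of means of 0.602, and the ratios were 0.917 on day 4 and 0.930 on day 6. HMGR-1131 (TRINITY_DN25654_c0_g2) had the lowest difference of any member in the mean over the 3 days. Its control libraries had 7.11 and 20.2 TPM on day 2, 8.82 and 13.2 on day 4, and 23.5 and 6.99 on day 6. The cold libraries had 5.23 and 2.48, 3.05 and 3.20, and 6.11 and 5.59 TPM on those days. Every cold library was below every control library. In TPM, control had both the larger mean and the larger spread, 13.3 ± 7.07 against 4.28 ± 1.54 TPM (n = 6). The log2 difference was −1.35 (SE 0.33, 95% interval −2.08 to −0.62, limma Benjamini-Hochberg adjusted p = 0.016). With replicate 3 of cold day 2 and of cold day 6 both left out it was −1.19, with an adjusted p of 0.078 in limma. Summed with HMGR-903, which has the same Swiss-Prot hit, the difference was −0.69 (adjusted p = 0.017 by limma).

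HMGR-375 (TRINITY_DN35207_c0_g6) is a short piece with 37.5 and 28.2 TPM in control on day 2, 29.7 and 27.0 on day 4, and 27.7 and 26.7 on day 6. In cold it had 14.9 and 16.3, 26.2 and 20.7, and 14.7 and 26.3 TPM. The highest cold library was just below the lowest control library, and the means were 29.5 ± 4.06 and 19.9 ± 5.38 TPM (n = 6). The log2 difference was −0.58 (SE 0.18, 95% interval −0.97 to −0.18, limma Benjamini-Hochberg adjusted p = 0.040). That call remained only without control day 2 replicate 3 or cold day 6 replicate 3, and leaving out any of the other 10 libraries gave adjusted p-values up to 0.11 in limma. Scaling the libraries by median ratios gave 0.051 and a fit without a variance trend 0.069, both limma adjusted p-values.

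HMGR-1417 was the most abundant HMGR gene, and its means were the same to within their spread, 35.7 ± 16.2 TPM in control and 35.9 ± 10 in cold (n = 6; log2 difference 0.10, 95% interval −0.56 to 0.76, limma Benjamini-Hochberg adjusted p = 0.84). HMGR-903 (TRINITY_DN25654_c0_g1), from the same component as HMGR-1131, had 5.00 to 15.1 TPM in control and 8.52 to 13.8 in cold, with a log2 difference of 0.00. HMGR-529 (TRINITY_DN34041_c1_g3) had 6.06 to 14.2 and 9.31 to 14.9 TPM. The rest were at low levels. HMGR-2243 (TRINITY_DN24286_c0_g3), the longest, ranged from 0.36 to 7.78 TPM in control and from 0.40 to 12.0 in cold. HMGR-220, HMGR-214 and HMGR-428 were each listed below 14 TPM in every library, with log2 differences of −0.13, −0.92 and 0.99, none of them called.

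The HMGR genes did not vary together among the control libraries. HMGR-609 (TRINITY_DN35207_c0_g3), singled out after its values were seen, had 7.05 and 20.7 TPM in control on day 2, 8.26 and 12.1 on day 4, and 24.2 and 6.31 on day 6. These follow HMGR-1131 library by library, with a ratio of HMGR-609 to HMGR-1131 between 0.903 and 1.03 in the 6 control libraries. In the cold libraries HMGR-609 had 3.90 to 7.34 TPM and that ratio was 1.18 to 1.94. HMGR-903 ran the other way in control, with 15.1 and 7.41 TPM on day 2, 15.1 and 10.5 on day 4, and 5.00 and 11.35 on day 6. Neither pattern was particular to HMGR. HMGS-1735, MVK-2312, MVD-782 and SQS-1733 were among the members that ran as HMGR-903 did, and SQE-2299 and HMGL-2332 ran as HMGR-1131 did. The median ratio scaling factors of these libraries also ran as HMGR-903 did (1.06 and 0.991, 1.09 and 1.05, 0.909 and 1.07). The 16 xylem genes summed to 299.99 and 183 TPM, 271 and 229 TPM, and 170 and 495 TPM in the same control libraries, lower on each day where HMGR-1131 was higher. The same held for the callus list (985 and 489, 905 and 601, 448 and 516 TPM) and the seed list (215 and 92.3, 86.5 and 66.6, 46.5 and 92.3 TPM). The epidermis list ran the other way, with 267 and 350, 241 and 285, and 536 and 382 TPM. The green tissue list had 280.4 and 244, 294 and 243, and 244 and 230.1 TPM, lower on days 2 and 4 where HMGR-1131 was higher and higher on day 6. The part of such cells in these values was not tested. The HMGR-609 difference of −0.92 (SE 0.34) missed the threshold (limma Benjamini-Hochberg adjusted p = 0.068). It was called without control day 2 replicate 1 (−1.16, adjusted p = 0.026) or control day 6 replicate 3 (−1.22, 0.018) in limma, which are libraries where it was low.

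**Figure D3:**
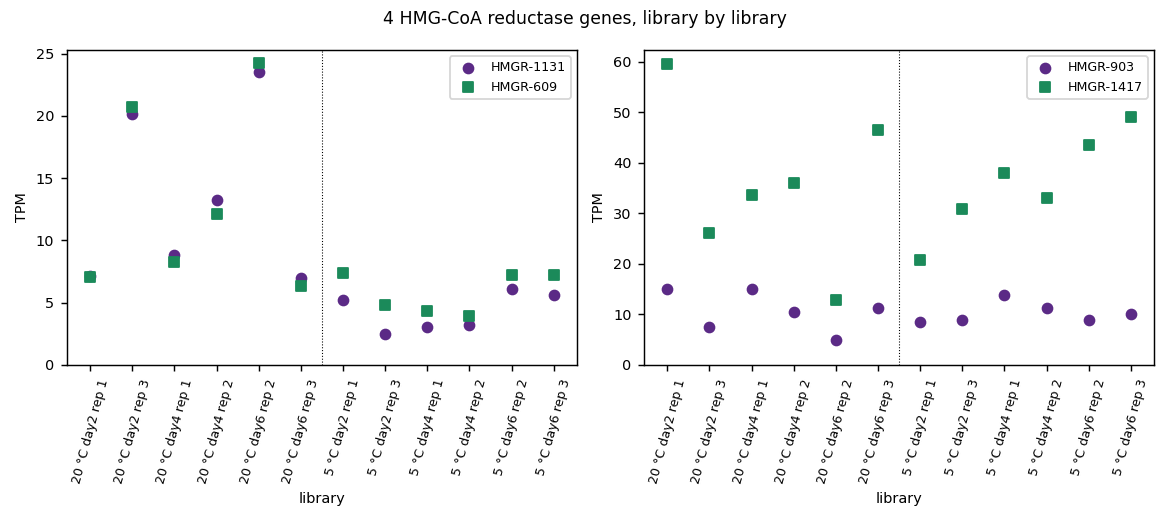
TPM of HMGR-1131 and HMGR-609 (one panel) and of HMGR-903 and HMGR-1417 (other panel) in each of the 12 libraries, ordered by temperature, day and replicate. HMGR-1131 and HMGR-609 rise and fall together over the control libraries, up to 23.5 and 24.2 TPM, and stay below 8 TPM in every cold library.

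The steps from mevalonate to isopentenyl diphosphate showed 1 called gene among 12. MVK-2312 (TRINITY_DN25516_c1_g1), the only gene of mevalonate kinase, had 71.5 and 42.5 TPM in control on day 2, 60.1 and 57.3 on day 4, and 41.9 and 58.1 on day 6, against 74.35 and 41.9, 43.9 and 51.4, and 53.3 and 74.5 in cold. The groups overlapped on days 2 and 6, and the mean difference was 0.02 on the log2 scale (95% interval −0.43 to 0.47, limma Benjamini-Hochberg adjusted p = 0.95). Phosphomevalonate kinase adds the next phosphate. Its most abundant gene, PMK-585 (TRINITY_DN34227_c0_g1), had 33.7 to 44.9 TPM in control and 22.3 to 48.0 in cold, and its difference of −0.19 was not called (95% interval −0.57 to 0.19, limma Benjamini-Hochberg adjusted p = 0.44). The other 7 PMK genes had log2 differences between −0.43 and 0.22. The ratio of cold to control PMK sums was 0.963 on day 2, 0.671 on day 4 and 1.02 on day 6.

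MVD, which removes carbon dioxide to give isopentenyl diphosphate, had genes with opposite signs, 2 below zero and 1 above. MVD-1792 (TRINITY_DN29893_c0_g1), the long gene whose hit is MVD1 of Arabidopsis, had 77.5 and 69.7 TPM in control on day 2, 81.7 and 74.5 on day 4, and 50.2 and 53.9 on day 6. In cold it had 36.7 and 53.7, 44.3 and 40.0, and 55.6 and 42.5 TPM. Both cold libraries were below both controls on days 2 and 4, and the groups overlapped on day 6, when control itself was lower. The means were 67.9 ± 13.0 and 45.5 ± 7.56 TPM (n = 6), with a log2 difference of −0.56 (SE 0.16, 95% interval −0.91 to −0.21, limma Benjamini-Hochberg adjusted p = 0.027). The call remained without control day 2 replicate 3, control day 6 replicate 2, cold day 2 replicate 3 or cold day 6 replicate 2, and was lost without any of the other 8 libraries (limma adjusted p up to 0.076) and in a fit without a variance trend (0.054). MVD-782 (TRINITY_DN35713_c1_g1), whose hit is MVD2 and whose listed Pfam domain is adh_short, had 57.7 ± 19.9 TPM in control and 75.8 ± 17.3 in cold and was not called (log2 difference 0.43, 95% interval −0.09 to 0.95, limma Benjamini-Hochberg adjusted p = 0.20). The short MVD-386 (TRINITY_DN35713_c1_g3) had 1.54 to 9.01 TPM in control and 1.51 to 3.81 in cold (log2 difference −0.74, 95% interval −1.41 to −0.08, limma Benjamini-Hochberg adjusted p = 0.097). It was called without control day 2 replicate 1 (−0.97, adjusted p = 0.035 in limma). The sum over MVD genes was 131 ± 28.4 TPM in control and 124 ± 17.0 in cold.

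IDI, the isomerase between isopentenyl diphosphate and its allylic partner, had the largest summed TPM of the path at both temperatures. IDI-627 and IDI-1992 came from the same component. IDI-627 (TRINITY_DN34635_c1_g2) had 92.3 to 147 TPM in control and 93.4 to 173 in cold (log2 difference 0.17, 95% interval −0.25 to 0.59, limma Benjamini-Hochberg adjusted p = 0.53). IDI-1992 (TRINITY_DN34635_c1_g1) had 128 ± 13.3 and 110 ± 14.4 TPM (n = 6 each). IDI-1037 (TRINITY_DN18332_c0_g1), whose listed Pfam domain is Ank_2, had 116 ± 17.2 and 118 ± 16.2 TPM (n = 6 each). None of these was called, and the IDI sum was 368 TPM in both groups (SD 43.6 in control and 50.0 in cold). FPS, which builds the farnesyl unit that SQS joins in pairs, had 1 gene. FPS-1945 (TRINITY_DN20945_c0_g1) had 34.2 and 37.1 TPM in control and 43.5 and 31.1 in cold on day 2, 45.2 and 43.6 against 22.1 and 28.0 on day 4, and 30.5 and 27.9 against 23.2 and 23.4 on day 6. Both cold libraries lay below both controls on days 4 and 6, and the mean difference missed the threshold (−0.36, 95% interval −0.69 to −0.02, limma Benjamini-Hochberg adjusted p = 0.11).

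SQS commits the path to sterols and triterpenes. The longest and most abundant gene, SQS-1733 (TRINITY_DN32411_c0_g2) had 43.5 to 85.7 TPM in control and 40.0 to 68.4 in cold, and was not called (65.2 ± 16.6 and 51.5 ± 11.2 TPM, log2 difference −0.32, 95% interval −0.79 to 0.14, limma Benjamini-Hochberg adjusted p = 0.28). The short SQS-334 (TRINITY_DN12148_c0_g1), with the same Swiss-Prot hit, had 19.5 and 23.8 TPM in control on day 2, 36.6 and 24.5 on day 4, and 27.6 and 25.05 on day 6. In cold it had 19.1 and 8.27, 10.9 and 8.84, and 10.5 and 14.4 TPM. Each cold library was below each control library, although cold day 2 replicate 1 came within 1 TPM of control. The means were 26.2 ± 5.74 and 12.0 ± 4.09 TPM (n = 6), and the log2 difference was −1.09 (SE 0.22, 95% interval −1.58 to −0.61, limma Benjamini-Hochberg adjusted p = 0.0070). Summed with SQS-1733 the difference was −0.53 and no longer passed (adjusted p = 0.068 by limma). SQS-415 (TRINITY_DN28810_c0_g2), singled out after its values were seen, had 13.8 ± 7.95 TPM in control and 19.2 ± 4.76 in cold, the opposite sign, and was not called (log2 difference 0.60, 95% interval −0.11 to 1.32, limma Benjamini-Hochberg adjusted p = 0.19).

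SQE, which puts the oxygen on squalene, had the lowest ratio of cold to control sums in the path, 0.686 (45.7 ± 8.97 TPM in control and 31.3 ± 9.04 in cold), with overlapping libraries. The ratio was 0.835 on day 2, 0.863 on day 4 and 0.437 on day 6. SQE-2299 (TRINITY_DN23462_c0_g1) had 15.8 and 18.1 TPM in control on day 2, 13.6 and 21.4 on day 4, and 38.3 and 23.5 on day 6. In cold it had 18.3 and 7.03, 8.34 and 8.63, and 4.08 and 16.7 TPM. The groups overlapped on day 2, and both cold libraries were lower on days 4 and 6. The log2 difference was −1.06 (SE 0.33, 95% interval −1.77 to −0.34, limma Benjamini-Hochberg adjusted p = 0.038). SQE-2438 (TRINITY_DN26777_c0_g1) had 7.16 and 8.41, 11.3 and 10.7, and 6.20 and 3.82 TPM in control, and 4.38 and 4.94, 2.03 and 4.95, and 2.34 and 5.14 TPM in cold on days 2, 4 and 6. It was lower in both cold libraries on days 2 and 4 (log2 difference −0.84, SE 0.26, 95% interval −1.40 to −0.27, limma Benjamini-Hochberg adjusted p = 0.038).

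Neither SQE call held when most single libraries were left out. The SQE-2299 call remained only without control day 2 replicate 1, control day 6 replicate 3, cold day 2 replicate 1 or cold day 6 replicate 3, and rose to an adjusted p of up to 0.098 in limma without another. It was also lost after median ratio scaling (limma adjusted p = 0.056), after quantile normalization (0.053) and without a variance trend (0.061). The SQE-2438 call remained only without control day 6 replicate 3, cold day 4 replicate 2 or cold day 6 replicate 3 (limma adjusted p up to 0.11 without another). Summed over the 4 SQE genes, which share 1 hit, the difference was −0.57 and was not called. SQE-2563 (TRINITY_DN24645_c0_g2) varied little in control, 11.9 to 16.1 TPM, and widely in cold, with 5.13 and 19.8 TPM on day 2, 23.4 and 29.9 on day 4, and 9.28 and 10.1 on day 6. It was above control on day 4 and below it on day 6, with a mean log2 difference of −0.04. SQE-1896 was between 0 and 6.58 TPM.

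**Figure D4:**
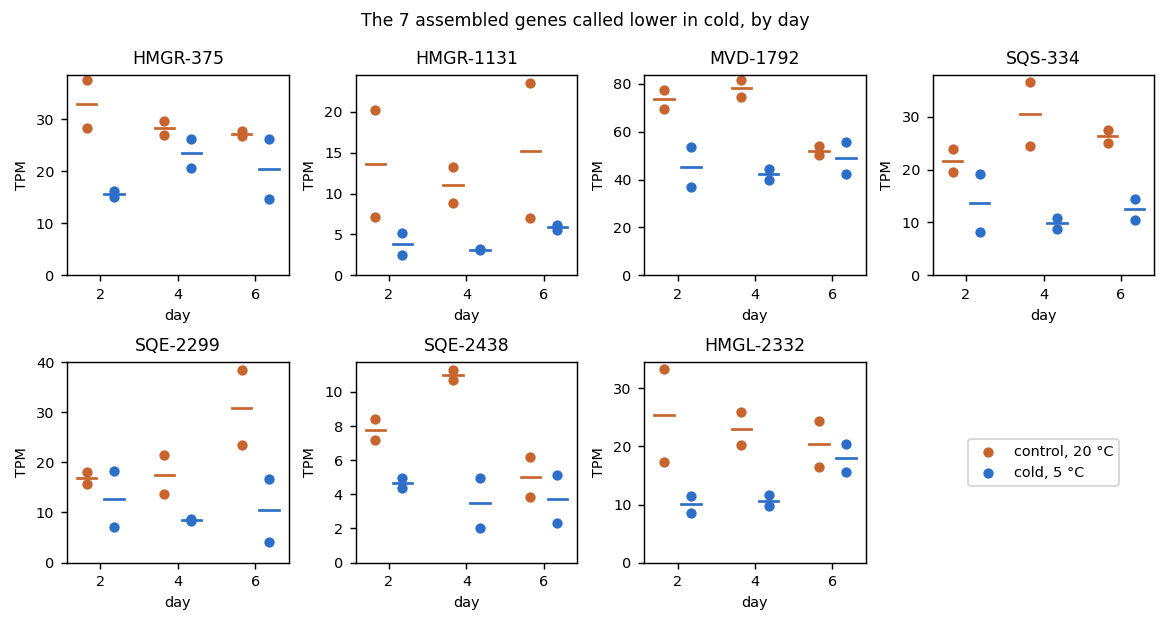
TPM by day of the 7 members called lower in cold, with 1 point for each library and a line at the mean of the 2 libraries of a temperature and day. SQS-334, HMGR-1131 and HMGR-375 have every cold library below every control library, and the other 4 overlap on at least 1 day.

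Day by day, the members were lowest against control on day 4. On day 2 no member was called, where 1.76% of all genes were (1.48% higher and 0.287% lower), and 4 members had an unadjusted p below 0.05 in limma, beside 18.4% of all genes. On day 4, 2 members were called lower (5.26%, against 4.3% lower, 4.07% higher and 8.38% in either direction over all genes), and 8 had an unadjusted p below 0.05, beside 27.6% of all genes. SQS-334 had a log2 difference of −1.52 on day 4 (SE 0.38, 95% interval −2.35 to −0.68, limma Benjamini-Hochberg adjusted p = 0.037), and the call was lost when any of the 4 day 4 libraries was left out (limma adjusted p up to 0.21). HMGL-633 was the other. On day 6 no member was called, against 0.484% of all genes (0.318% higher and 0.166% lower), and 5 had an unadjusted p below 0.05 in limma, beside 17.5% of all genes. The median log2 difference over the members was −0.22 on day 2, −0.46 on day 4 and −0.16 on day 6, beside 0.00, −0.16 and −0.03 over all genes.

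Counted by library, day 4 again had the most members lower in cold. Both cold libraries lay below both controls for 10 members on day 2 (26.3%, against 21.2% of all genes), for 22 on day 4 (57.9%, against 36%) and for 11 on day 6 (28.9%, against 25.5%). Both lay above both controls for 5, 5 and 6 members (13.2%, 13.2% and 15.8%, against 23.5%, 25.9% and 22.8% of all genes). With all 6 libraries of each temperature, 3 members were wholly lower in cold (7.89%, against 3.84% of all genes) and none was wholly higher (against 3.27%). The sign was the same on the 3 days for 16 of 38 members, 13 of them negative, and for 51.7% of all genes. No member was called in the limma test of whether the difference depended on the day (background 0.0157%; 1 member had an unadjusted p below 0.05, against 9.49% of all genes), and no test here shows that day 4 differed from the others. No member was called for change over days in control (background 0%; unadjusted 0 members, against 3.67% of all genes) or in cold (background 0.601%). In cold, HMGS-1735, HMGR-220, PMK-1405 and SQE-2563 had an unadjusted p below 0.05 in limma, as did 18.4% of all genes.

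The neighbours of the path were counted from lists of words, with the same fit, and their shares stand beside 11.3% of all genes called higher and 12% called lower. Of the genes for acetyl-CoA acetyltransferase, which feeds HMGS, 1 of 2 fell: TRINITY_DN27299_c0_g1, whose hit is At5g47720, went from 29.9 ± 8.19 TPM in control to 17.2 ± 3.78 in cold (log2 difference −0.74 ± 0.18 SE by limma, Benjamini-Hochberg adjusted p = 0.014). The other, AAT1 (TRINITY_DN27299_c0_g2) of the same component, was more abundant and was not called. It had 56.4 ± 23.9 and 57.7 ± 8.57 TPM (0.10, SE 0.18, limma Benjamini-Hochberg adjusted p = 0.72). In the plastid MEP pathway, 1 of 19 genes rose, none fell and 18 were not called (5.26% called, median −0.03). The number that rose was 3 after median ratio scaling, 4 after quantile normalization, 2 without a variance trend, 0 for sums by hit and 0 to 2 with a library left out (2 without control day 2 replicate 1 or control day 6 replicate 3). The gene that rose was ISPH (TRINITY_DN28750_c0_g1), the last enzyme of that pathway, with 30.8 ± 5.25 and 47.2 ± 12.6 TPM (0.58, SE 0.16, limma Benjamini-Hochberg adjusted p = 0.023). Its call was lost without control day 4 replicate 2, cold day 4 replicate 2 or cold day 6 replicate 2. The sum over genes with the same Arabidopsis ISPH hit differed by 0.08. The other ISPH genes, none of them called, were at −0.49, −0.32 and −0.30 in its component and at −0.71, −0.40 and 0.16 elsewhere.

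The words for longer prenyl chains matched 17 genes, of which 2 rose and 4 fell (35.3% called, median −0.26). Most stand for enzymes that make such chains, while COQ5 and PPT1, neither of them called, act on molecules that carry a chain or attach one. The number that fell was 2 without control day 4 replicate 2, either cold day 4 library or cold day 6 replicate 2. The number that rose was 1 without a variance trend. It was 0 without control day 4 replicate 2, control day 6 replicate 2, cold day 4 replicate 1 or cold day 6 replicate 2, and 1 without replicate 1 of control day 2, either cold day 2 library or cold day 4 replicate 2. GGPS1 (TRINITY_DN19023_c0_g1), a geranylgeranyl diphosphate synthase, went from 90.8 ± 51.2 to 24.9 ± 9.64 TPM (log2 difference −1.71 ± 0.34 SE by limma, Benjamini-Hochberg adjusted p = 0.0061). The GGPS1 genes did not all fall. TRINITY_DN19023_c0_g2, from the same component, was also called lower (−1.01). TRINITY_DN22340_c0_g1 (0.56) and TRINITY_DN22340_c0_g3 (−0.32), whose hit is also GGPS1 of Catharanthus roseus, were not called. Both genes that rose were GGR, the small subunit of the heterodimeric enzyme. TRINITY_DN23097_c0_g1 went from 4.55 ± 1.14 to 9.59 ± 3.03 TPM (0.91, SE 0.25, limma Benjamini-Hochberg adjusted p = 0.023). The more abundant TRINITY_DN28065_c0_g1 went from 60.2 ± 16.1 to 101 ± 35.2 TPM (0.70, SE 0.20, limma Benjamini-Hochberg adjusted p = 0.028). The call of TRINITY_DN23097_c0_g1 was lost without control day 4 replicate 2, control day 6 replicate 2, cold day 2 replicate 3 or cold day 6 replicate 2, and without either cold day 4 library.

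The words for other farnesyl enzymes matched 5 genes, of which 2 fell (40% called, median −0.49). They include enzymes that attach a farnesyl group and a pair of farnesylcysteine lyase (FLCY) genes, which break down farnesylcysteine, and 1 of the genes that fell was FLCY (TRINITY_DN20562_c0_g1, −0.57). The number that fell was 1 without a variance trend and for sums by hit, and it stayed at 2 only without control day 2 replicate 3, control day 6 replicate 2 or cold day 6 replicate 2 when a library was left out. The larger fall was that of FTA (TRINITY_DN27031_c0_g1), the shared subunit of protein prenyltransferases, from 37.2 ± 5.20 to 23.5 ± 10.3 TPM (log2 difference −0.74 ± 0.17 SE by limma, Benjamini-Hochberg adjusted p = 0.012). In the sterol branch, 7 of 18 genes fell and none rose (38.9% called, median −0.52), and 16 of 18 were below zero. The number that fell was 4 without a variance trend, 3 without control day 4 replicate 2, cold day 4 replicate 1 or cold day 6 replicate 2. It was also 4 when control day 4 replicate 1 or cold day 4 replicate 2 was left out. A gene rose after median ratio scaling, or with replicate 1 of control day 2 left out. DWF5 (TRINITY_DN23175_c0_g1), the reductase that acts late in sterol synthesis, went from 49.6 ± 20.6 to 14.7 ± 6.62 TPM (−1.68, SE 0.26, limma Benjamini-Hochberg adjusted p = 0.0022). In the triterpene branch none of 8 genes was called, all 8 were below zero, and the median was −0.48. A gene fell without either control day 2 library or control day 6 replicate 3. A cycloartenol synthase gene stands in both of the last lists. These lists were not tested against each other or against all genes.

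**Figure D5:**
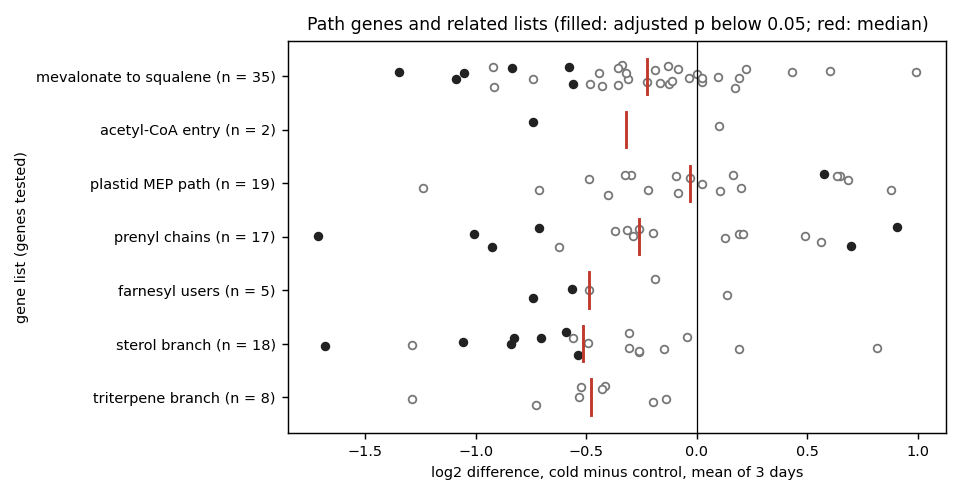
Log2 difference, cold minus control, averaged over the 3 days, for the genes of the path and of each related list, with 1 point for each gene and a line at the list's median. The plastid MEP list centres on −0.03, and the sterol and triterpene lists on −0.52 and −0.48.

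HMG-CoA lyase splits HMG-CoA in the mitochondrion and is not a step to squalene. HMGL-2332 (TRINITY_DN31112_c1_g1) had 17.3 and 33.4 TPM in control on day 2, 20.2 and 25.9 on day 4, and 24.3 and 16.4 on day 6, against 8.59 and 11.5, 11.7 and 9.72, and 15.6 and 20.4 in cold. It was lower in both cold libraries on days 2 and 4, and the groups overlapped on day 6. The log2 difference was −0.80 (SE 0.21, 95% interval −1.26 to −0.34, limma Benjamini-Hochberg adjusted p = 0.021), lost without control day 4 replicate 2, control day 6 replicate 2, cold day 4 replicate 2 or cold day 6 replicate 2. HMGL-633 (TRINITY_DN31112_c1_g2), from the same component, had 11.1 and 11.1 TPM in control and 3.85 and 3.60 in cold on day 4, and overlapped on days 2 and 6. Its day 4 difference was −1.36 (SE 0.38, 95% interval −2.19 to −0.53, limma Benjamini-Hochberg adjusted p = 0.049). Among the fits that left out a library, this call remained only in those without a cold day 2 library (replicate 1 or replicate 3).

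HMGL-2026 (TRINITY_DN25337_c0_g1), singled out after its values were seen, was the only lyase gene above control. It had 4.30 and 4.53, 6.02 and 4.20, and 2.85 and 6.62 TPM in control on days 2, 4 and 6, and 4.58 and 8.17, 8.36 and 8.29, and 10.3 and 8.89 TPM in cold. Both cold libraries were above both controls on each day, and the mean missed the threshold (log2 difference 0.67 ± 0.24 SE by limma, Benjamini-Hochberg adjusted p = 0.067). It passed after median ratio scaling (0.71, adjusted p = 0.037), after quantile normalization (0.70, 0.038) and without control day 6 replicate 3 (0.83, 0.033) in limma. Summed over the 3 lyase genes the difference was −0.44.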

How the data were processed

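RNA of 12 libraries of Panax ginseng embryogenic calli was measured by Illumina sequencing, per the labels. The deposited table gives TPM per assembled gene, computed by the authors; the unit was read from the values. Tools named in the submitters' processing notes are cutadapt, FastQC, Salmon and edgeR. Roles, versions, assembly and annotation settings: not given in the sources used here. TPM keep no counts, so sequencing depth is unknown and intervals cover only the spread between libraries.

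Genes reaching 1 TPM in 2 or more libraries (44600 of 44953) were fitted with limma 3.58.1 in R 4.3.3 on log2(TPM + 1), with 6 group means, a variance trend and Benjamini-Hochberg adjustment over all genes tested (threshold 0.05). Fold changes on this scale understate the change of genes with low TPM. Contrasts were the mean of the 3 daily differences, each day, their dependence on the day, and change over days within a temperature. The named members were those called in any test and the most abundant of each enzyme, with 3 chosen after their values were seen. Other members, such as HMGR-903, MVD-386 and SQE-2563, are given with values outside that rule. In the related lists they were the called gene with the largest rise and fall and at least 5 TPM in the higher arm. Some other genes of those lists are given beside them. Members and lists were chosen with earlier results of these data known. On simulated data with 44600 genes, 100 were changed 2-fold and as many 4-fold. The mean contrast recovered 28% of 2-fold and 73% of 4-fold changes, with 7 false among 108 calls. Far more genes, 10384, were called in the data, and the adjustment depends on that number. These percentages therefore do not give the sensitivity of the fit in the data. Alternatives were other pseudocounts, filters, scalings, limma options, replicate blocks, sums by hit, days alone and libraries left out. Gene lengths (in bases) and names are the deposited ones, and no sequence is shown.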

Additional observations from a re-analysis of the deposited data

Results flagged for a closer look

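In 4 of 76 sets of 6 libraries (each member at each temperature) 1 library stood apart from the other 5, and chance flags about 1 in 20 such sets. HMGS-676 was at 6.73 TPM in cold day 2 replicate 3, its highest cold library. HMGR-375 was at 37.5 TPM in control day 2 replicate 1, its highest control library. HMGR-2243 was at 12.0 TPM in cold day 2 replicate 1. SQE-1896 was at 6.58 TPM in control day 6 replicate 3.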

How the results depend on the processing

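Calls over all genes also changed with the processing, and fewer genes were called lower when any 1 library was left out. Genes called lower for the mean over days were 5334 of 44600 in the fit as reported and 4770 without a variance trend. They were 4391 with a replicate block of the number and 3515 with one of the 6 pairs. Median ratio scaling gave 4892 of 44586 and quantile normalization 5246 of 44600. Genes called higher were 5050 as reported, and 5820 and 5502 under those scalings. Members called lower for the mean over days were 7 in the fit as reported, 4 by limma without a variance trend, 3 with a replicate block of the number in the titles, and 3 with a replicate block of the 6 pairs of day and number. The number was 5 under median ratio scaling, 6 under quantile normalization, 6 for sums by hit (3 of the 7 and 3 HMGR genes that share a sum with them) and 2 to 6 with 1 library left out. Members called higher, 0 in that fit, were 1 under median ratio scaling, 1 under quantile normalization and 0 to 1 with a library left out. On day 4, where 2 were called, the count was 3 at a pseudocount of 5 TPM, 1 at a pseudocount of 0.1 TPM and 1 with no filter. It was 0 under median ratio scaling, quantile normalization, no trend, both replicate blocks, sums by hit and day 4 alone. With array weights it was 8, and with a library left out it was the same or lower. Day 4 counts over all genes in these fits are not given here. The counts for days 2 and 6, the dependence on the day and change over days stayed at 0 under every alternative run. In the related lists, the replicate block of the number gave 1 higher for MEP genes and 5 lower for sterol genes, and that of the 6 pairs gave 0 and 5, beside 1 and 7; for farnesyl enzymes both gave 1 lower beside 2, and for prenyl chains the 6 pairs gave 0 higher beside 2. The sign turned for MVK-2312 under quantile normalization (−0.01) and with some libraries left out (−0.11 to 0.16), for HMGR-1417 with some libraries left out (−0.20 to 0.39) and without cold day 2 and day 6 replicate 3 together (−0.02), and for HMGL-2026 in sums by hit (−0.44). The cause was not tested. Same-numbered cold and control libraries deviated from their group means with correlations of −0.188, 0.00743 and −0.0122 on days 2, 4 and 6. Each correlation was taken over genes from 1 pair of replicates at each temperature, and the labels do not say what a number shares. Whether the number marks a pairing is therefore not known.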
